A study of Homo sapiens with 2 samples.

Results

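The machinery of RNA interference was followed through 10 genes named in the gene tables, of 23365 genes in all. They are the 4 Argonaute genes EIF2C1, EIF2C2, EIF2C3 and EIF2C4 (now AGO1 to AGO4), the processing and export genes DGCR8, XPO5 and DICER1, and the 3 TNRC6 scaffold genes TNRC6A, TNRC6B and TNRC6C. They were taken by a list of names, which was drawn up with earlier results of these data known, and every one reached 1 CPM (counts scaled to library size) in at least 1 library, the level above which a gene was taken as measured. RNA came from A673, an established Ewing sarcoma line, carrying a lentiviral short hairpin. One pool carried the hairpin 813 against RUNX3, a Runt-domain transcription factor, and the other a non-target hairpin, NT. Both pools were made alike, with virus from HEK 293T cells, 6 µg/mL polybrene and 0.4 µg/mL puromycin for 6 days, and RNA was sequenced after selection of poly(A) transcripts. Each hairpin was represented by 1 library from 1 pooled population, with 1 hairpin against RUNX3. Without replicates no difference between the hairpins could be tested.

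For both libraries the title names one hairpin and the hairpin characteristic the other. The libraries are named here by their titles, and taking the characteristic instead turns every direction round. RUNX3 itself was 3.78-fold lower in 813, with 387 pairs there and 1391 in NT. Pairs counted over all genes came to 23342660 and 24326135. All 8 of the Ewing sarcoma markers checked were measured, with summed levels of 6434 CPM in 813 and 5857 CPM in NT. They did not move together. On the log2 scale BCL11B was at 0.98, CCND1 at 0.62, LIPI at 0.22, PRKCB at 0.15 and CD99 at 0.08. NKX2-2 (-1.43) and NR0B1 (-1.11) were lower by over 2-fold, and STEAP1 was at -0.83. Of the leukocyte markers 2 of 4 were measured (summed 91.0 and 130.7 CPM), nearly all of it CD79A with 2201 and 3002 pairs, with PTPRC at 0 and 1 pair and CD3E at 0 in both. Of the epithelial markers 1 of 3 was measured, KRT18 with 15290 and 13069 pairs (summed 625 and 563 CPM), with EPCAM at 0 and 1 pair, and of the endothelial markers 1 of 3 (1.43 and 1.46 CPM). Of 4 markers chosen for HEK293-like cells, 2 were measured, with summed levels of 4.33 and 9.30 CPM, and their part in the results was not tested. In RNA from a whole culture, a change in every cell and a change in the share of cells cannot be told apart.

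A microRNA begins as a hairpin within a longer nuclear transcript. The nuclease DROSHA, bound to its RNA-binding partner DGCR8, cuts the hairpin free, exportin-5 (XPO5) carries it to the cytoplasm, and DICER1 trims it to a short duplex. An Argonaute protein keeps 1 strand and pairs its seed with messenger RNAs, and a TNRC6 protein bound to Argonaute recruits the deadenylation and decay enzymes that silence the target. Synthetic short hairpin RNAs, the tool used to lower RUNX3, pass through much of the same route. Both libraries came from hairpin-carrying cells, so a cell without a hairpin is not part of the comparison.

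The log2 fold used throughout compares TMM-scaled pairs in the library titled 813 with those in the library titled NT. Its range is an exact 95% binomial (Clopper-Pearson) interval that covers counting error only. This interval excluded no difference in 69.1% of measured genes and in 9 of the 10 genes followed here. A gene was called higher or lower where the fold was 2 or more and the interval lay wholly beyond 1.5-fold. By this rule 2 of the 10 genes, TNRC6A and EIF2C4, were called higher in 813, beside a background of 8.13% of 12254 measured genes. Both calls ended when a smooth trend of the log2 fold on GC content and length, fitted over all genes, was removed (TNRC6A 0.95, EIF2C4 0.56). None of the 10 was called lower, beside 3.48% of measured genes. At a smaller size, 1.5-fold with the interval beyond 1.2-fold, 4 of 10 were higher (TNRC6A, EIF2C4, DICER1 and TNRC6B) beside 17.5% of genes, and EIF2C2 alone was lower beside 9.85%. The median log2 fold of the 10 was 0.18, against 0.01 over all measured genes. The differences were mixed in direction, with 5 genes above 0 and 5 below.

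**Figure D1:**
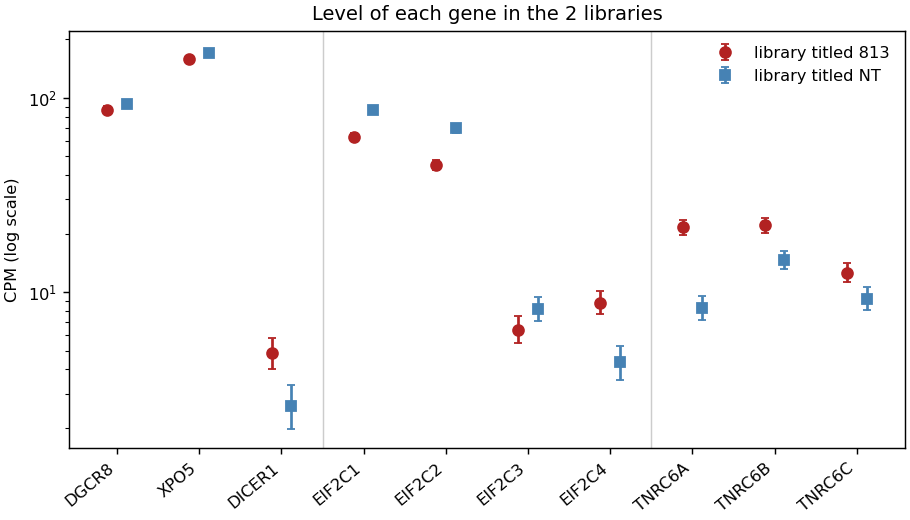
Level of each gene in CPM (log axis) in the library titled 813 (circles) and the library titled NT (squares), with exact 95% Poisson intervals that cover counting error only. CPM is not divided by length, so levels are read between the libraries and not between genes. The squares lie above the circles for EIF2C1 to EIF2C3 and below them for EIF2C4 and all 3 TNRC6 genes.

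The nuclear step and the export step showed small differences. DGCR8 (chr22:20067755-20099400, hg19) had 2125 pairs in 813 and 2142 in NT, or 86.9 and 92.3 CPM. Its log2 fold was -0.09 (-0.17 to 0.00), so its interval reached no difference. DROSHA, the nuclease that DGCR8 binds, was close to equal too, with 1529 and 1458 pairs. It was singled out after its values were seen, as the partner of DGCR8. XPO5 (chr6:43490068-43543812), which exports the trimmed hairpin, had 3872 pairs in 813 and 3949 in NT, or 158 and 170 CPM, a log2 fold of -0.10 (-0.17 to -0.04). The folds of DGCR8 and XPO5 differed by 1.01 times (0.938 to 1.09). With the trend on GC content and length removed, that ratio was 1.19, outside the interval. DGCR8 was then at -0.05, XPO5 at -0.30 and DROSHA at -0.37. DGCR8 and XPO5 both took small positive values, 0.02 to 0.05, when libraries were scaled by plain totals, by the authors' RPKM or without the 20 most abundant genes. Their direction therefore depends on the scaling.

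DICER1 differed from both. This cytoplasmic nuclease (chr14:95552565-95623759) had 119 pairs in 813 and 60 in NT, or 4.86 and 2.58 CPM, a log2 fold of 0.91 (0.45 to 1.39). That was 2.0 times the fold of DGCR8 (1.44 to 2.79) and 2.02 times that of XPO5 (1.47 to 2.82). With the trend on GC content and length removed, the ratios were smaller, 1.47 and 1.76, though within those intervals. Per length DICER1 was the scarcest of the 10. Its RPKM was 0.376 in 813 and 0.182 in NT, against 15.5 and 15.0 for DGCR8 and 23.7 and 23.3 for XPO5. Of all measured genes, only 9.17% in 813 and 5.09% in NT had a lower RPKM than DICER1. The RPKM ratio of XPO5 to DICER1 was 63.2 in 813 and 127.8 in NT, so the low level of DICER1 was common to both libraries and more marked in NT. After removal of the GC and length trend, DICER1 was at 0.51 and was no longer called at the smaller size.

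The DGCR8 transcript carries hairpins of its own. Its second exon record, chr22:20073210-20074206, holds the microRNA genes MIR3618 and MIR1306, which the deposited table lists separately at 0 reads in both libraries. How reads over both a microRNA gene and DGCR8 were counted is not known here, so these 0 values do not measure the hairpins. As background, the DROSHA and DGCR8 complex is known to cut hairpins within DGCR8 messenger RNA itself. The mature products are shown because they lie inside a transcript whose protein processes them. Capitals mark the seed, bases 2 to 8 from the 5′ end, and the sequences are RefSeq's for GRCh38.p14, + strand.
miR-3618: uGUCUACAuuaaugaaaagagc
miR-1306-5p: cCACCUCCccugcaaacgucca
miR-1306-3p: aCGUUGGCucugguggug

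No 2 of these 3 share a seed. The exon record around them had 785 reads in 813 and 818 in NT, and a density of 16.1 and 17.7 CPM per kilobase. Exon records 3 to 13, which follow it, had 2409 and 2182 reads at densities of 32.4 and 31.0. The hairpin-bearing record was thus read less densely than the inner exons in both libraries. Its log2 fold was -0.13 (-0.34 to 0.07) against 0.07 (-0.05 to 0.19) for records 3 to 13, and these intervals overlap. The first record, at 7.26 and 7.37, and the last, at 17.4 and 19.8, were also below the inner exons, so low density was not confined to the record with the hairpins. These records were grouped after their values were seen. Whether the counting of reads shared with the microRNA genes lowered the density of the second record was not tested.

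Among the Argonautes, 3 of 4 were lower in 813 and EIF2C4 was higher. EIF2C2, the Argonaute that can slice a fully paired target, lies at chr8:141541264-141645646 and had 1106 pairs in 813 and 1614 in NT (45.2 and 69.5 CPM). Its log2 fold was -0.62 (-0.73 to -0.51), or 1.54-fold lower. EIF2C1 (chr1:36348810-36389899) had 1533 and 2004 pairs (62.7 and 86.3 CPM), or -0.46 on the log2 scale (-0.56 to -0.37). These are the abundant Argonautes, and both intervals lay below 0, while 69.1% of all measured genes had an interval clear of 0 on either side. EIF2C3 (chr1:36396683-36522063) had 157 and 190 pairs (6.42 and 8.18 CPM), with a log2 fold of -0.35 (-0.67 to -0.04). EIF2C4 (chr1:36273828-36323490) had 216 and 101 pairs (8.83 and 4.35 CPM), with a log2 fold of 1.02 (0.67 to 1.38), or 2.02-fold higher. The 4 genes summed gave 3012 pairs in 813 and 3909 in NT, a log2 fold of -0.45 (-0.52 to -0.38). The sum followed EIF2C1 and EIF2C2 because they hold most of its pairs. The call of EIF2C2 at the smaller size was lost under plain totals, the authors' RPKM and the total without the 20 most abundant genes, where its value was -0.49.

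EIF2C1, EIF2C3 and EIF2C4 are neighbours on chromosome 1, and they did not move together. EIF2C4 ends 25319 bases before EIF2C1 begins, and EIF2C1 ends 6783 bases before EIF2C3, all on the same strand. The fold of EIF2C4 was 2.79 times that of its neighbour EIF2C1 (2.18 to 3.61) and 2.58 times that of EIF2C3 (1.86 to 3.60). It was 3.12 times that of EIF2C2 (2.42 to 4.04), which lies on another chromosome. EIF2C1 and EIF2C3 had folds whose ratio was 0.926 (0.737 to 1.16), an interval that includes equality. These ratios compare genes within the same 2 libraries and do not depend on how the libraries are scaled. With the trend on GC content and length removed, the ratio of EIF2C4 was 2.66 to EIF2C1, 2.19 to EIF2C3 and 2.69 to EIF2C2, each within the interval just given. The trend lowered all 4 single values together: EIF2C4 was then at 0.56 (0.22 to 0.92) and no longer called, EIF2C1 at -0.85, EIF2C2 at -0.86 and EIF2C3 at -0.57. EIF2C4 remained the one Argonaute above 0 under that setting and under every other setting run.

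**Figure D2:**
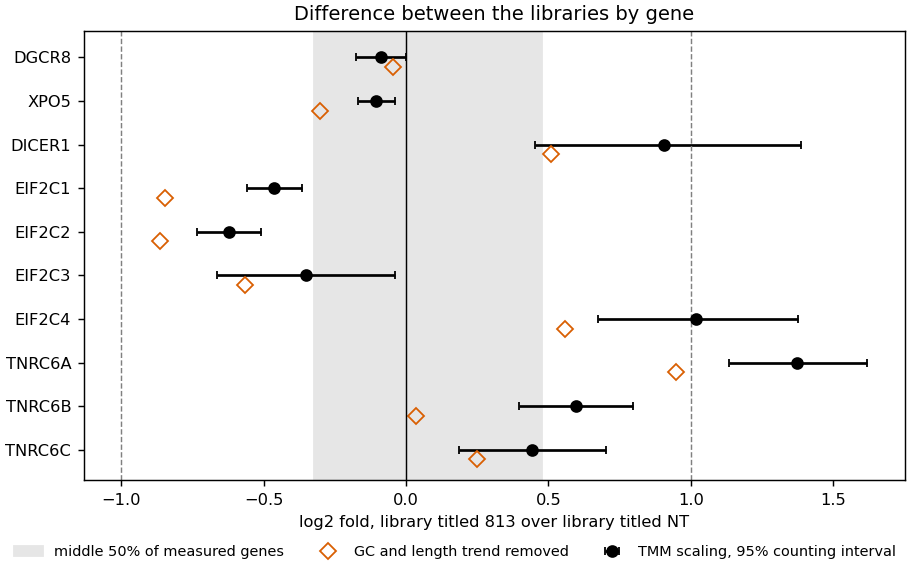
Log2 fold of each gene, 813 over NT (filled points, bars are 95% counting intervals), and the value after a trend on GC content and length was removed (open diamonds). The grey band spans the lower to the upper quartile of measured genes and dashed lines mark 2-fold; TNRC6A and EIF2C4 lie beyond the upper dashed line before the trend is removed and no gene does after it.

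Per length, EIF2C2 was the leading Argonaute in both libraries. RPKM was 10.4 in 813 and 14.6 in NT for EIF2C2, and 6.74 and 8.49 for EIF2C1. EIF2C3 had 1.42 and 1.65, and EIF2C4 had 1.01 and 0.453. The order EIF2C2, EIF2C1, EIF2C3, EIF2C4 was therefore the same in both. As shares of the summed Argonaute RPKM, EIF2C2 held 53.1% (51.3 to 55.0) in 813 and 58.0% (56.4 to 59.5) in NT, and EIF2C1 held 34.5% (32.9 to 36.1) and 33.7% (32.3 to 35.1). EIF2C4 held 5.14% (4.49 to 5.87) in 813 and 1.80% (1.47 to 2.18) in NT, and EIF2C3 held 7.24% (6.20 to 8.40) and 6.55% (5.69 to 7.50). The shares of EIF2C4 and EIF2C2 had intervals that did not overlap between libraries, while those of EIF2C1 and EIF2C3 overlapped. Counted as pairs without division by length, EIF2C1 led, with 50.9% and 51.3%, because its listed length of 7478 bases exceeds the 3500 bases listed for EIF2C2.

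**Figure D3:**
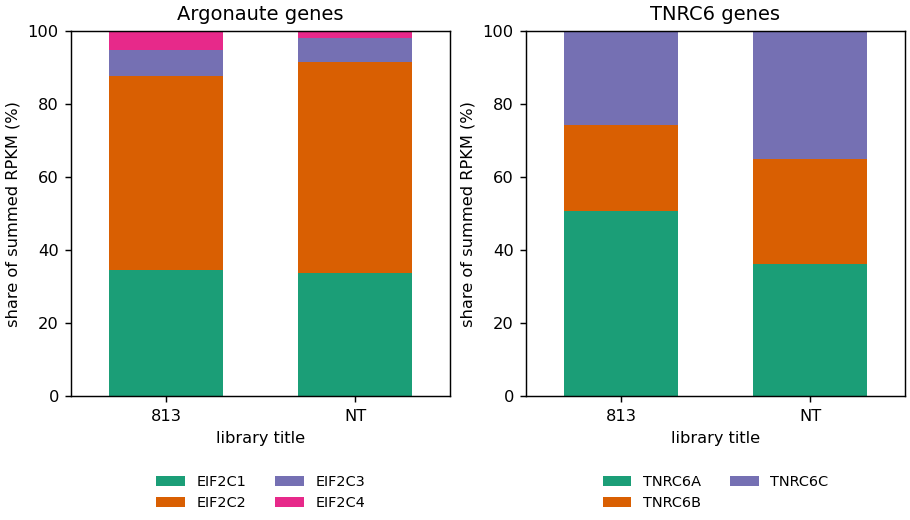
Share of each gene in the summed RPKM of its family (stacked bars, percent) in the libraries titled 813 and NT, for the 4 Argonaute genes and the 3 TNRC6 genes. EIF2C2 is the largest Argonaute share in both, and the TNRC6A share is 50.9% in 813 and 36.4% in NT.

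The exon records showed whether each Argonaute differed along its whole length. In EIF2C1 all 19 records were lower in 813, and in EIF2C2 all 19 were lower. Among records with 50 or more reads, log2 folds ran from -1.17 to -0.01 in EIF2C1 and from -0.99 to -0.38 in EIF2C2. The lower level of these genes was thus spread over the transcript. In EIF2C3 14 of 19 records were lower. Its first 6 records had 175 reads in 813 and 257 in NT, a log2 fold of -0.63 (-1.04 to -0.23), and records 7 to 19 had 222 in each, -0.08 (-0.47 to 0.32). In EIF2C4 15 of 18 records were higher, and the 3 that were not were the first 3, with 21 reads in 813 and 22 in NT. Records 4 to 18 of EIF2C4 had 474 and 211 reads, a log2 fold of 1.09 (0.76 to 1.44), against -0.14 (-1.51 to 1.22) for the first 3. The 2 stretches of EIF2C3 and those of EIF2C4 were divided after their values were seen, and their intervals overlap.

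**Figure D4:**
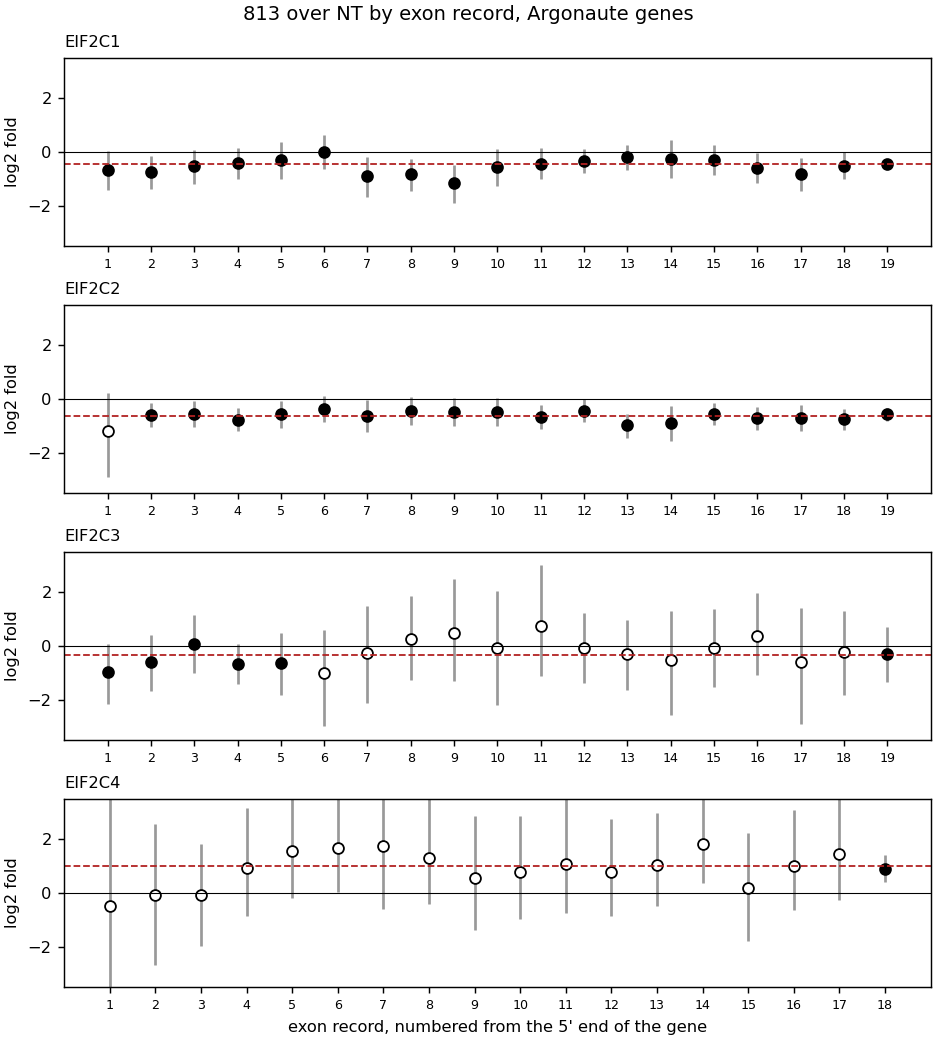
Log2 fold, 813 over NT, of each exon record of the 4 Argonaute genes in order from the 5′ end (points, with 95% counting intervals, drawn only within the axis). Filled points have 50 or more reads over both libraries, the red dashed line is the gene's own value, and the EIF2C1 and EIF2C2 records all lie below 0.

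A record was counted as departing from its gene where it had 50 or more reads, its fold differed 2-fold or more from that of the gene's other records, and the intervals did not overlap. By this rule 0 of 106 records of the 10 genes departed, beside 0.421% of the 89244 records tested over all genes. Most of the 106 were in XPO5 (32), EIF2C1 (19), EIF2C2 (18) and DGCR8 (14). EIF2C4 and DICER1 had only 1 each, the last record, and TNRC6C had 2. The first 3 records of EIF2C4 and records 17 to 21 of TNRC6C were below 50 reads, so the rule did not reach them. DICER1 had 22 of 29 records higher and 6 lower, with 265 reads in 813 and 135 in NT. XPO5 had 26 of 32 records lower. Its last record, at the 3′ end, had 1779 reads in 813 and 1522 in NT, a log2 fold of 0.15 (0.01 to 0.29), while the other records together were at -0.18 (-0.24 to -0.12). The 3′ end and the body of XPO5 therefore differed in direction under TMM scaling, by less than the 2-fold of the rule. DGCR8 showed the opposite order, with its last record at -0.19 (-0.33 to -0.05) and the others at 0.01 (-0.09 to 0.12). The listed span of TRMT2A overlaps the end of DGCR8 by 3 bases. For the Argonautes the last record and the rest were alike, at -0.45 and -0.51 in EIF2C1, -0.57 and -0.64 in EIF2C2, and 0.89 and 1.09 in EIF2C4.

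The TNRC6 genes encode the scaffold proteins, also called GW182 proteins, that link Argonaute to the deadenylases. All 3 were higher in 813. TNRC6A (chr16:24741049-24837547) had 527 pairs in 813 and 193 in NT, or 21.5 and 8.31 CPM, a log2 fold of 1.37 (1.13 to 1.62). At 2.59-fold it had the largest difference of the 10 genes, and 95.4% of measured genes had a lower log2 fold. TNRC6B (chr22:40440821-40731812) had 540 and 339 pairs (22.1 and 14.6 CPM), or 0.60 on the log2 scale (0.40 to 0.80). TNRC6C (chr17:76000318-76104916) had 308 and 215 pairs (12.6 and 9.26 CPM), at 0.44 (0.19 to 0.70). The family sum was 1375 pairs in 813 and 747 in NT, a log2 fold of 0.80 (0.68 to 0.94), opposite in sign to the Argonaute sum. The fold of TNRC6A was 1.71 times that of TNRC6B (1.38 to 2.14) and 1.91 times that of TNRC6C (1.49 to 2.44), and the ratio of TNRC6B to TNRC6C was 1.11 (0.886 to 1.39). TNRC6A thus stood apart from its paralogs, which did not differ beyond counting error before any trend was removed. With the trend on GC content and length removed, the 3 ratios were 1.88, 1.63 and 0.862, the last just below its interval.

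By RPKM, which divides by the listed length, TNRC6A led its family. RPKM was 2.06 in 813 and 0.726 in NT for TNRC6A, 0.949 and 0.574 for TNRC6B, and 1.04 and 0.696 for TNRC6C. TNRC6A made up 50.9% (48.1 to 53.6) of the summed TNRC6 RPKM in 813 and 36.4% (32.5 to 40.3) in NT. In NT its share lay beside that of TNRC6C, 34.9% (31.3 to 38.6), with overlapping intervals. With the trend on GC content and length removed, TNRC6A was at 0.95 (0.71 to 1.2), no longer called at 2-fold but still at the smaller size, TNRC6C at 0.25 and TNRC6B at 0.04 (-0.16 to 0.24). TNRC6B has the longest listed transcript of the 10, 18695 bases, and the largest trend term, 0.56, so nearly all of its difference went with the trend.

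Along the transcript, all 25 records of TNRC6A were higher in 813, with log2 folds from 1.01 to 1.45 among the 5 records of 50 or more reads. In TNRC6B 25 of 27 records were higher. Its last record, 12955 bases long, had 334 reads in 813 and 153 in NT, a log2 fold of 1.05 (0.65 to 1.46), and the other records together were at 0.48 (0.27 to 0.70). TNRC6C was mixed, with 13 of 22 records higher and 9 lower. Records 1 to 16 had 437 and 319 reads, a log2 fold of 0.38 (0.08 to 0.68). Records 17 to 21 had 50 in 813 and 83 in NT, at -0.80 (-1.58 to -0.06), with each of the 5 lower in 813. The last record had 166 and 88 reads, at 0.83 (0.30 to 1.40). The middle stretch therefore ran against both of its flanks, with intervals that did not overlap theirs, and it was picked out after the values were seen. The last record also lies over LOC100131096 by 1434 bases, a gene with 82 and 42 reads as deposited, and without a stated strand setting their reads cannot be told apart.

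**Figure D5:**
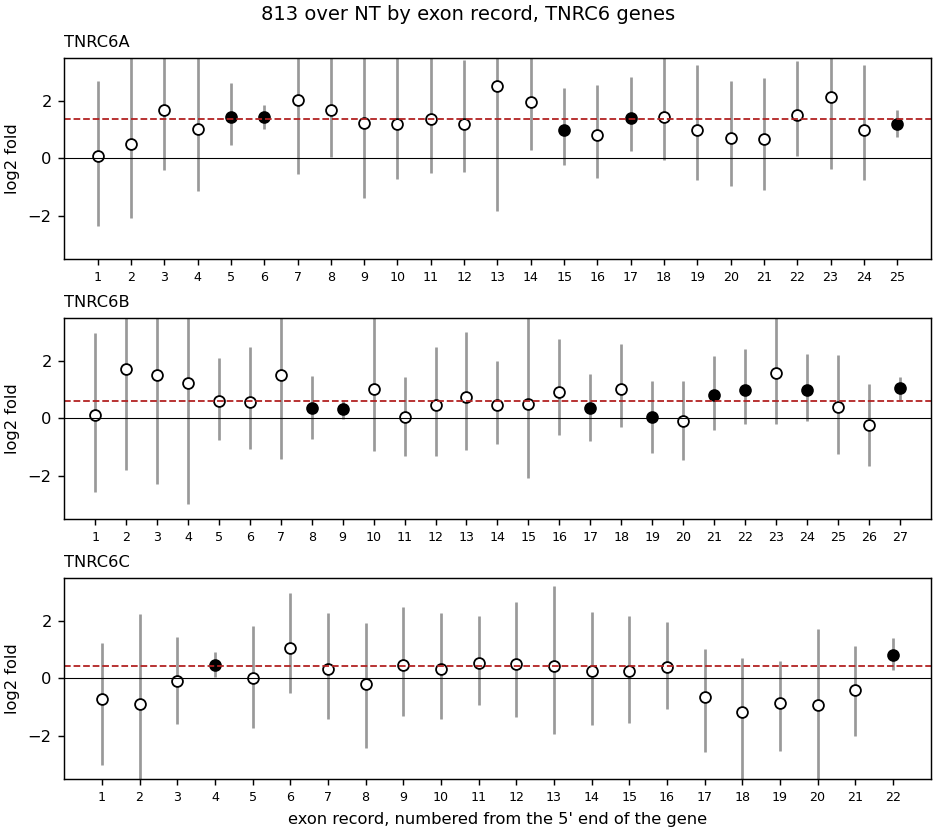
Log2 fold, 813 over NT, of each exon record of TNRC6A, TNRC6B and TNRC6C in order from the 5′ end (points, with 95% counting intervals, drawn only within the axis). Filled points have 50 or more reads over both libraries, the red dashed line is the gene's own value, and records 17 to 21 of TNRC6C lie below 0 between higher neighbours.

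RUNX3 binds DNA at short Runt motifs, so the bases before the start of each gene were searched for them. RefSeq (GRCh38.p14) entries were matched for 9 of the 10 genes (not EIF2C2), 16 start sites in all, and the 250 bases before each start were read for TGTGGT or TGCGGT on both strands. Either motif was present before 5 of the 16 starts, at 4 distinct sites, belonging to DICER1 (2 starts with TGTGGT and 1 with TGCGGT, of 5 starts, where the 2 TGTGGT windows overlap and hold the same match), TNRC6B (1 of 1) and TNRC6C (1 of 4). The same letters were present in 16.3% of 35116 promoters of this length, 11.0% for TGTGGT and 5.84% for TGCGGT. A match is a description of letters and not a binding site. The promoters of EIF2C4 and EIF2C1 are shown as neighbours with opposite differences, and those of TNRC6A and TNRC6B as the 2 paralogs with the larger differences. Capitals mark the searched motif, which of these 4 only TNRC6B held, beginning at position -51 with -1 as the base before the start. All are on the + strand, at chr1:35807766-35808015, chr1:35882959-35883208, chr16:24729401-24729650 and chr22:40044584-40044833 in that order.
EIF2C4: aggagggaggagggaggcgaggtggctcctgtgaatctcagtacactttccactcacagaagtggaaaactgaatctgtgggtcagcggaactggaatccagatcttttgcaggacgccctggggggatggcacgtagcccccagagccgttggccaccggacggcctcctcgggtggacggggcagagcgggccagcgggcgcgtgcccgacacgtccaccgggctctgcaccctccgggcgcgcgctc
EIF2C1: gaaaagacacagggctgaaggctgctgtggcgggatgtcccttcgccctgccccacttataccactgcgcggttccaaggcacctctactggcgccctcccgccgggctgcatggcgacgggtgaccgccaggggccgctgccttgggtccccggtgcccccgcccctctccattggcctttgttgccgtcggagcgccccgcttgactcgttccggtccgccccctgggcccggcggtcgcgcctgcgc
TNRC6A: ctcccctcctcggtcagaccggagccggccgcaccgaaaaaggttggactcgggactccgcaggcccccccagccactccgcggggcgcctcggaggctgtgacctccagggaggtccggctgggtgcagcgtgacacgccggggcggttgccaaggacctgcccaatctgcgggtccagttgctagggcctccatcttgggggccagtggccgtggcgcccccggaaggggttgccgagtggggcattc
TNRC6B: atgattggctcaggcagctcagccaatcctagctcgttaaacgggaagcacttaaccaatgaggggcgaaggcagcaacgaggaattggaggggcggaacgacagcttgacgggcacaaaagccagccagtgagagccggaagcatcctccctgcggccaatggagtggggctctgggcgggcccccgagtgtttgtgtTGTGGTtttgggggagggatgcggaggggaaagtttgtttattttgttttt

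The 2 genes called higher, EIF2C4 and TNRC6A, held neither motif in this window, as did most promoters, since only 16.3% of all held either. Any link to RUNX3 was not tested. GC content was 66.4% and 71.6% in their windows, 71.6% for EIF2C1 and 56.4% for TNRC6B.

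The partners of these proteins were read from 8 lists, of which 80 genes were measured. Of the 80, 7 were called higher (8.75%, beside 8.13% of all measured genes) and 0 lower, and the median log2 fold was 0.03. The share called higher was near the background. At the smaller size 20 were higher (25%, beside 17.5%) and 1 lower (1.25%, beside 9.85%). Nuclear processing factors had 0 of 11 called in either direction, with a median of -0.11, the export and dicing partners 0 of 3 (-0.08), precursor tailing and let-7 control 0 of 4 (0.19) and RISC loading chaperones and helpers 0 of 9 (0.04). At the smaller size, beside 17.5% of all measured genes, these lists had 2 of 11 (DDX5 at 0.92 and DDX17 at 0.98, helicases), 0 of 3, 1 of 4 (ZCCHC11 at 0.71) and 3 of 9 higher (TSNAX at 0.99, DNAJA2 at 0.71 and TSN at 0.60). They were named after their values were seen.

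The 7 calls fell in the remaining lists, and none of these lists was tested against other genes. Argonaute partners had 3 of 12 called higher at 2-fold, beside 8.13% of all measured genes, with a median of 0.34. Among them were FMR1, an RNA-binding translational regulator, with 184 pairs in 813 and 72 in NT (log2 fold 1.27), and the LIM protein WTIP with 733 and 333 (1.06). Deadenylation, decapping and decay factors had 3 of 24 called higher, beside the same 8.13%, with a median of 0.09. PAN3, a subunit of the deadenylase that TNRC6 proteins recruit, had 142 and 40 pairs (1.74), the decapping factor DCP1A had 224 and 82 (1.37), and the helicase DDX6 had 839 and 371 (1.10). With the GC and length trend removed, PAN3 was at 1.48, FMR1 at 1.31 and WTIP at 1.32, while DCP1A was at 0.93 and DDX6 at 0.72. The genes named here differ in how far their values go with the trend.

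Of the microRNA host transcripts, 1 of 14 was called higher, a share near the 8.13% of all measured genes. This gene, MIR22HG, which hosts miR-22, had 85 pairs in 813 and 27 in NT, a log2 fold of 1.56 (0.94 to 2.26). Host transcript reads do not measure the mature microRNA, which was not analysed here. The PIWI pathway, the germline relative of this machinery, had 0 of 3 called among 9 genes listed, and 3 of the 9 had no pair in either library. The 2 mature products that MIR22HG hosts are shown as the microRNAs of the named host, with nothing measured on them, with bases 2 to 8 in capitals (RefSeq, GRCh38.p14, - strand).
miR-22-5p: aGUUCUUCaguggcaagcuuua
miR-22-3p: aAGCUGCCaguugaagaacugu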

How the data were processed

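Per the submitters' processing notes, the tools were CASAVA 1.9, TopHat2 2.0.6 and HTSeq and the build was hg19. The annotation is not given in the sources used here, nor is the strand setting. The authors deposited raw counts and RPKM values, each for genes and for exons, per the file headers. All gene counts were even while 36.4% and 35.5% of exon counts were odd, so gene counts were read as 2 reads per pair and halved, as were exon reads for folds and intervals. The authors' RPKM rests on 60848394 and 63156235 reads. Of 23398 gene rows, 33 repeats were dropped.

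TMM in edgeR 4.0.16 (R 4.3.3) scaled the libraries (factors 1.05 for 813 and 0.954 for NT). Log2 folds used a prior of 0.5 pairs and intervals used scipy 1.17.1. PCR copies are not independent molecules, so intervals cover counting error only, and p-values were not computed. The alternatives tried were DESeq2 1.42.0 size factors, plain totals, the authors' RPKM, a total without the 20 most abundant genes, no filter, 5 CPM, undivided counts, and removal of a smooth trend on GC content and length (patsy 1.0.2), which explained 15.6% of the variance over the 11838 genes with a GENCODE release 29 transcript. Intervals of RPKM shares were exact binomial intervals of the pair shares, rescaled by a fixed ratio of odds, and so are approximate. Exon records contained in another record of the same gene were left out. The scripts were tested on simulated counts.

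The rule for named genes took the 10 genes, RUNX3, and from each list the called genes, at most 4 in each direction. A gene that the rule names is not reported here. The genes and lists were chosen with earlier results of these data known. No other gene matched 50% of the longest transcript of any of the 10 at 97% identity or more (blastn 2.17.0).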

Additional observations from a re-analysis of the deposited data

How the results depend on the processing

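No paired analysis was possible because each group has 1 library, and for the same reason no library could be left out. No filter, the 5 CPM limit and undivided counts left the ratio of the scaled counts in place, so no sign could change there. Of 79 values of single genes under all the alternatives, those included, 73 kept their sign. The other 6 were DGCR8 and XPO5 under plain totals, the authors' RPKM and the total without the 20 most abundant genes. These scalings raised the median of all measured genes from 0.01 to between 0.14 and 0.15. All genes called then split as 1324 higher and 303 lower with plain totals, 1312 and 305 with RPKM, and 1308 and 307 without the 20 most abundant, against 996 and 427. Under each of the 3, the number of the 10 genes lower by 1.5-fold was 0 in place of 1. The share of all measured genes lower by 1.5-fold was then 6.28%, 6.37% and 6.41%, in the same order. With the GC and length trend removed, 0 of the 10 genes were called higher in place of 2, and the median of the 10 was -0.0054. At 1.5-fold 1 was higher (TNRC6A), beside 13.8% of all genes, and 2 were lower (EIF2C1 and EIF2C2), beside 7.65%. That setting called 710 genes higher and 291 lower at 2-fold over 11838 genes. At 5 CPM DICER1 dropped out and the median was -0.087, because 9 genes remained. With undivided counts, 1 gene of the lists was called lower in place of 0. DESeq2 size factors put TNRC6B at 0.58, just under 1.5-fold. Plain totals added DICER1 to the genes called higher. Shares depended on division by length: EIF2C2 was 55.3% in 813 and 60.0% in NT from exon records, and 36.7% and 41.3% undivided, and TNRC6A was 38.3% and 25.8% undivided. Departing exon records were 0 of 178 with at least 20 reads, 0 of 106 at 1.5-fold and 0 of 106 with undivided reads. Over all genes they were 442 of 107048, 806 of 89244 and 842 of 89244, in the same order. With shares that small, 0 departing records is near the background. DICER1, EIF2C4 and EIF2C3, with 60 to 216 pairs, had the widest intervals.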
